A study of Mus musculus with 9 samples.

Results

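The collagen cross-linking enzymes comprise 8 listed mouse genes, the lysyl oxidases Lox, Loxl1, Loxl2, Loxl3 and Loxl4 and the lysyl hydroxylases Plod1, Plod2 and Plod3. They were chosen by name, with the brightest probe set that carries 1 gene symbol standing for each gene. Of the 8, 7 had such a probe set, and all 7 were among the 13335 genes tested out of 19858 with a probe set of their own. The one Loxl2 probe set is annotated to a second gene as well and was not used, so Loxl2 was not analysed here.

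Messenger RNA was measured on 9 Affymetrix arrays, 1 for each primary culture of interscapular brown fat from male C57BL/6 mice aged 5 weeks. The 3 LPA cultures (subjects 7 to 9) received 1-oleoyl lysophosphatidic acid at 5 µM, the 3 HA155 cultures (subjects 4 to 6) received the autotaxin inhibitor HA155 at 2.5 µM, and the 3 control cultures (subjects 1 to 3) received the DMSO vehicle. All groups were grown from a precursor-enriched fraction with serum, sodium ascorbate and stepwise rising insulin and were collected at about day 9. The exposure is given both as during differentiation and as at 9 days in vitro, so its length is not settled. Autotaxin is the secreted enzyme that makes LPA, and the design asks for genes regulated by the enzyme and its lipid product.

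Collagen is stabilised outside the cell by covalent bonds between lysine side chains. Lysyl hydroxylases act first, inside the endoplasmic reticulum, where they hydroxylate chosen lysines of the nascent chains with iron, 2-oxoglutarate and ascorbate as cofactors. Lysyl oxidases are secreted copper enzymes that then oxidise lysine and hydroxylysine to reactive aldehydes, which condense into cross-links, also in elastin. In adipose tissue these enzymes belong to the stromal matrix programme, and their activity is known from the fibrosis of obese fat.

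Promoter windows were read for 3 of the 8 listed genes, Loxl4, Plod1 and Plod3, and 2 are shown. On all 9 arrays the lysyl oxidase Loxl4 was called higher with LPA, and the lysyl hydroxylase Plod3 passed no comparison. The Loxl4 call against control was lost in 10 of 15 fits with another setting or 1 array left out. Each is the RefSeq window of 300 bases, from 250 before to 50 after the gene's start, in build GRCm38.p6, written 5′ to 3′ on the gene's strand, and capitals mark a match to 1 of the 4 motifs searched. Loxl4 lies at chr19:42612757-42613056 on the minus strand and Plod3 at chr5:136986769-136987068 on the plus strand.
Loxl4: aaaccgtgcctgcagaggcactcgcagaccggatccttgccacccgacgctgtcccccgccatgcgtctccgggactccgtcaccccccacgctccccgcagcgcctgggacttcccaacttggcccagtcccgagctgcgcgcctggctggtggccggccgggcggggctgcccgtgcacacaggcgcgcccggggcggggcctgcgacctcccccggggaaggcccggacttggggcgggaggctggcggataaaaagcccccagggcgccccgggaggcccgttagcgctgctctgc
Plod3: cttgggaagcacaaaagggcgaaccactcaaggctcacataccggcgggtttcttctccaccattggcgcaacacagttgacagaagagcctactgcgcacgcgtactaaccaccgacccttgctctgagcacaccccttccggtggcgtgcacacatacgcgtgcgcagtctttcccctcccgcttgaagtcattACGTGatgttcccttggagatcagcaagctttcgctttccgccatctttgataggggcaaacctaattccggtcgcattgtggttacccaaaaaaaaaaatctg
The motifs were the hypoxia-response core ACGTG, the TEAD motif GGAATG, the AP-1 motif TGANTCA and the CArG box of serum response factor, each on both strands, and no matches overlapped. The Loxl4 window held 0 matches to the 4 motifs, as did that of Plod1, whereas the Plod3 window held 1 ACGTG. Of 32851 promoter windows of this length 19.6% held ACGTG, 14.7% GGAATG, 7.81% TGANTCA and 1.63% a CArG box. The Loxl4 window was rich in G and C at 75%, against 53.3% for Plod3. A missing match says only that these letters are not in this window.

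The LPA arrays lay apart from the others before any gene was considered. Principal component 1, with 66.7% of the variance, placed LPA arrays between 19.6 and 28.7 and the rest between -15.5 and -7.28. LPA array 8 was the farthest out. The typical gene had an SD of 0.107 on LPA arrays, 0.054 on HA155 arrays and 0.074 on control arrays (median over genes, log2 scale). The number of arrays limits precision, and the labels name no batch.

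LPA cultures held more lysyl oxidase mRNA than control cultures, by up to 1.59-fold for Lox, while no lysyl hydroxylase passed the test. On all 9 arrays 4 of 7 measured members rose, namely Lox, Loxl3, Loxl4 and Loxl1, and none fell (limma adjusted p below 0.05 over all genes). For comparison, 12.2% of all genes tested rose in this comparison and 23.0% changed in either direction. All 7 members had a higher mean with LPA, with a median log2 change of 0.24, beside a median of 0.00519 over all genes. In 5 of the 7 the LPA and control arrays did not overlap, as in 33.1% of all genes tested. The Loxl4 call was lost in 10 of 15 fits with another setting or 1 array left out, and the Loxl1 call in 8 of 17. Without LPA array 8, a choice made after seeing the data, 2 lysyl oxidases and 2 lysyl hydroxylases were called. The plot of levels by array shows the members side by side.

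**Figure D1:**
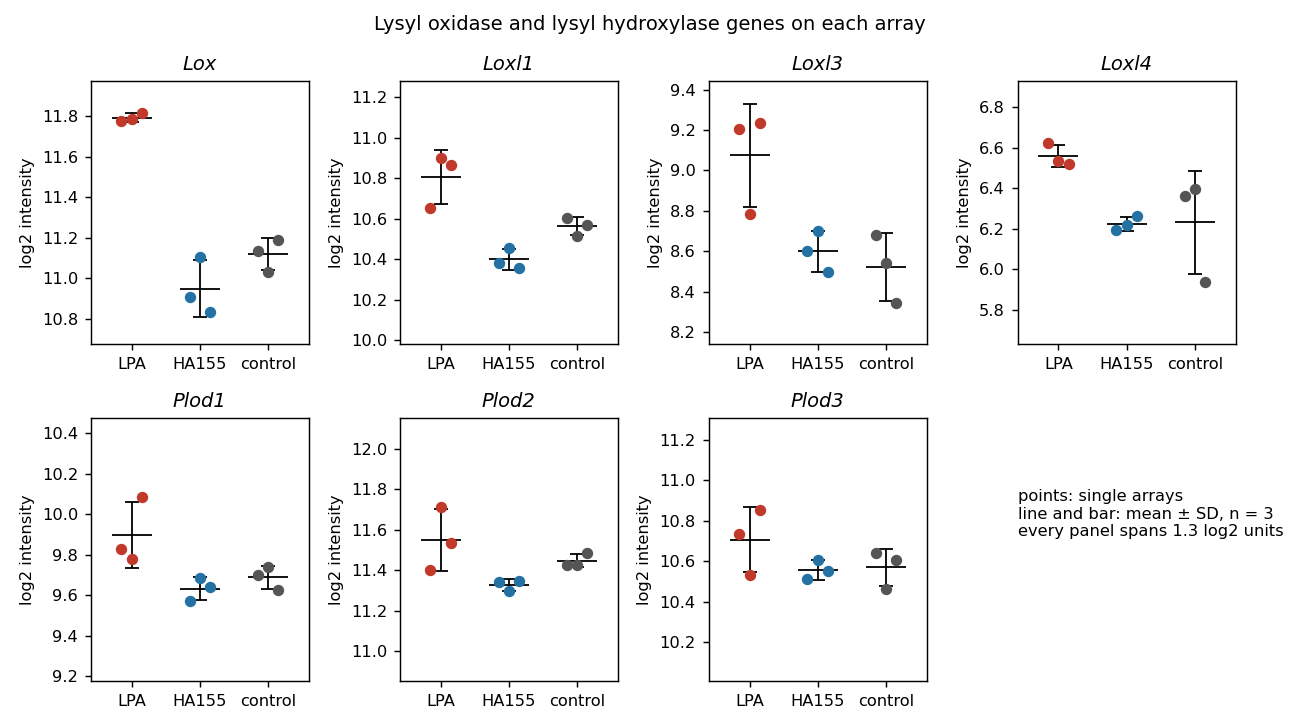
Log2 intensity of the 7 measured genes on each array (points), with group mean and SD (n = 3), for LPA, HA155 and control from left to right in each panel. The 3 Lox points with LPA, at 11.78 to 11.82, stand above every HA155 and control point, while LPA and control overlap for Plod2 and Plod3.

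Lox, the founding lysyl oxidase of collagen and elastin, read 3510, 3530 and 3610 intensity units on LPA arrays 7, 8 and 9. It read 1920, 2200 and 1820 units on HA155 arrays 4, 5 and 6. It read 2250, 2090 and 2340 units on control arrays 1, 2 and 3. The LPA arrays had an SD of 0.021 on the log2 scale and all stood above the other 6. Lox rose 1.59-fold with LPA over control (log2 change 0.67, SE 0.08, limma adjusted p = 7.97e-05). With its sign, that change stood at percentile 98.5 of all genes tested, a rank that counts every gene that fell as lower. Without LPA array 8 the change was 0.68 (limma adjusted p = 0.000342).

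Loxl3, a lysyl oxidase of the branch with scavenger-receptor domains, read 591, 441 and 603 units on LPA arrays 7, 8 and 9. On HA155 arrays 4, 5 and 6 it read 388, 417 and 362 units. On control arrays 1, 2 and 3 it read 411, 373 and 326 units. Array 8 was the low one among the LPA arrays, yet it still exceeded all others. Loxl3 rose 1.46-fold with LPA over control (log2 change 0.55, SE 0.12, limma adjusted p = 0.00743), and by 0.70 without LPA array 8 (limma adjusted p = 0.000645).

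Loxl4, of the same branch, had readings not far above 48.2, the mean intensity below which genes were left out. Loxl4 read 98.7, 92.8 and 91.9 units on LPA arrays 7, 8 and 9, and 73.3, 74.4 and 76.8 units on HA155 arrays 4, 5 and 6. On control arrays 1, 2 and 3 it read 82.4, 84.2 and 61.2 units. Control array 3 was well below the other controls, and no LPA array overlapped with control. Loxl4 rose by 0.33 (SE 0.11, limma adjusted p = 0.0442), but the change was 0.18 without control array 3 (limma adjusted p = 0.0784). The call was lost in 10 of 15 alternative fits, among them those without any 1 LPA or HA155 array (limma adjusted p from 0.0657 to 0.113). A second Loxl4 probe set, between 18.5 and 27.8 units on all arrays, was under the intensity limit in every group and gave no further reading.

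Loxl1, known for its part in elastic fibre upkeep, read 1610, 1910 and 1870 units on LPA arrays 7, 8 and 9. On HA155 arrays 4, 5 and 6 it read 1330, 1410 and 1310 units. On control arrays 1, 2 and 3 it read 1560, 1460 and 1520 units. The 3 groups did not overlap with each other, although LPA array 7 lay close to control array 1. Loxl1 rose by 0.24 with LPA (SE 0.07, limma adjusted p = 0.032), and 8 of 17 alternative fits did not pass it, with limma adjusted p up to 0.112 without control array 2. It also missed without LPA array 8 (0.20, limma adjusted p = 0.0819), LPA array 9 (0.21, limma adjusted p = 0.0879), control array 3 (0.25, limma adjusted p = 0.0766) or HA155 array 4 (0.24, limma adjusted p = 0.0527).

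None of the 3 lysyl hydroxylases passed against control on all arrays. Plod1, the hydroxylase of the collagen helix, read 911, 878 and 1090 units on LPA arrays 7, 8 and 9. It read 760, 822 and 799 units on HA155 arrays 4, 5 and 6, and 831, 856 and 791 units on control arrays 1, 2 and 3. Its LPA arrays stood just above all controls, and the log2 difference was 0.21 (95% interval 0.03 to 0.39, limma adjusted p = 0.0915). Plod3, which also carries glycosyltransferase activity that builds the sugar units of hydroxylysine, read 1710, 1480 and 1850 units on LPA arrays 7, 8 and 9. It read 1460, 1560 and 1500 units on HA155 arrays 4, 5 and 6, and 1600, 1410 and 1560 units on control arrays 1, 2 and 3. LPA array 8 fell within the control range, and the log2 difference was 0.14 (95% interval -0.05 to 0.32, limma adjusted p = 0.278).

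Plod2, the hydroxylase of collagen telopeptides whose product gives the mature pyridinoline-type cross-links, read 2710, 3360 and 2970 units on LPA arrays 7, 8 and 9. It read 2600, 2510 and 2610 units on HA155 arrays 4, 5 and 6. It read 2760, 2760 and 2860 units on control arrays 1, 2 and 3, the first 2 of which held an identical value. LPA array 7 lay below all controls and the other LPA arrays above them. The log2 difference was 0.10 (95% interval -0.06 to 0.27, limma adjusted p = 0.364), an interval that leaves a fold between 0.959 and 1.21.

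Among the LPA arrays, array 8 held the highest values of Loxl1 and Plod2 and the lowest of Loxl3, Plod1 and Plod3, while Lox hardly varied. Without it, Plod1 (0.27, limma adjusted p = 0.0364) and Plod3 (0.23, limma adjusted p = 0.0443) rose, and Plod2 measured 0.02 (limma adjusted p = 0.824). Loxl4 measured 0.34 without it, close to its 0.33 on all arrays, although the call was lost (limma adjusted p = 0.0739). Without array 8, called members numbered 2 lysyl oxidases and 2 lysyl hydroxylases, against 4 and 0 on all arrays. Over all genes that fit called 3059 of 13336 in either direction, against 3066 of 13335 on all arrays. The median log2 change without that array was 0.51 for the lysyl oxidases and 0.23 for the lysyl hydroxylases, against 0.44 and 0.14 on all arrays. The rises of Lox and Loxl3 were called in all 17 alternative fits. Plod1 and Plod3 were called against control in 1 of 17, the fit without LPA array 8, chosen after seeing the data. Without LPA array 9 instead, Plod1 measured 0.12 (limma adjusted p = 0.238) and Plod3 0.06 (limma adjusted p = 0.63). A difference between the families as such was not tested.

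**Figure D2:**
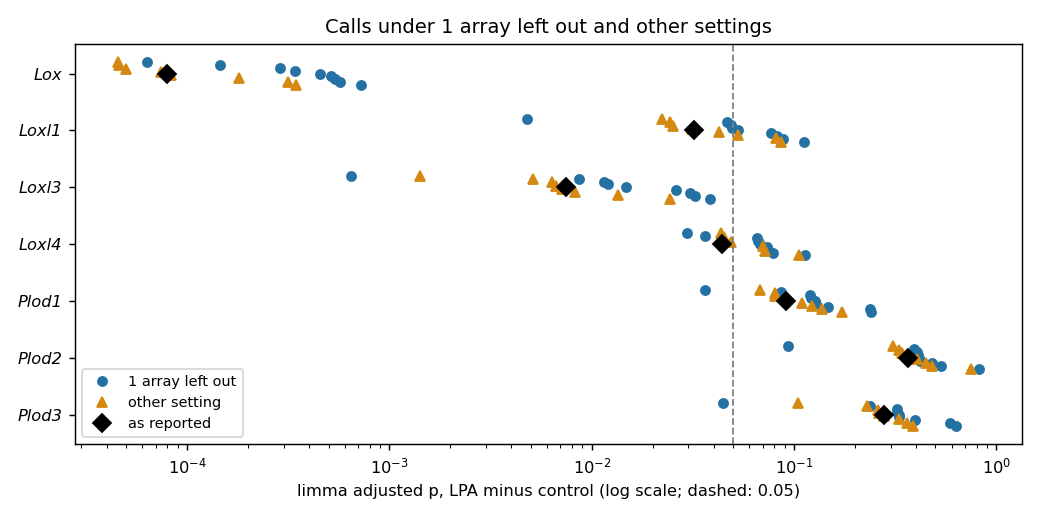
Limma adjusted p for LPA minus control (log axis) of each measured gene as reported (diamonds), with 1 array left out (circles) and under the other settings (triangles), with a dashed line at 0.05. Lox and Loxl3 stay left of the line throughout, and Loxl1 and Loxl4 lie on both sides of it.

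HA155 against control called no member in either direction (0 of 7 by limma). Of all genes tested 1.03% were called, 0.607% higher and 0.427% lower. At an unadjusted p below 0.05 stood 2 members, as did 8.11% of all genes. These were Lox, with a log2 difference of -0.17 (SE 0.08, unadjusted p = 0.0448, limma adjusted p = 0.6), and Loxl1, with -0.16 (SE 0.07, unadjusted p = 0.0465, limma adjusted p = 0.605). Lox overlapped between HA155 and control, since HA155 array 5 exceeded control array 2. Loxl1 did not overlap, nor did Plod2 (-0.12, limma adjusted p = 0.838), and 16.8% of all genes tested likewise had groups that did not overlap.

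The other differences with HA155 were -0.06 for Plod1, -0.01 for Plod3, -0.01 for Loxl4 and 0.08 for Loxl3. Their 95% intervals still allow changes of some size in either direction, from -0.24 to 0.23 for Loxl4 and from -0.20 to 0.35 for Loxl3. These intervals rest on a spread pooled over all 3 groups, LPA included. In a fit of HA155 and control alone the SE was 0.09 for Loxl3, against 0.12, and 0.12 for Loxl4, against 0.11. For Lox the interval ran from a fold of 0.791 to 0.997, and for Plod3 from 0.872 to 1.13. None of the 7 passed in any alternative fit.

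LPA against HA155, cultures given the product against cultures with the enzyme inhibited, called 1 member more. Here 5 of 7 members rose, the 4 measured lysyl oxidases and Plod1, and none fell, where 13.7% of all genes tested rose and 26.1% changed. The median of the 7 differences was 0.34, beside 0.0054 over all genes, and 6 of 7 did not overlap, as in 38.7% of all genes tested. Lox was 1.8-fold higher with LPA than with HA155 (log2 difference 0.84, SE 0.08, limma adjusted p = 1.15e-05), and Loxl1 1.33-fold (0.41, SE 0.07, limma adjusted p = 0.00154). Loxl3 rose by 0.47 (limma adjusted p = 0.0146), Loxl4 by 0.34 (limma adjusted p = 0.0364) and Plod1 by 0.27 (limma adjusted p = 0.0321).

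Lox and Loxl1 were called in all 17 alternative fits of this comparison. Loxl3 lost its call without HA155 array 6 (0.42, limma adjusted p = 0.0663), LPA array 7 (0.41, limma adjusted p = 0.0562) or LPA array 9 (0.39, limma adjusted p = 0.058). Loxl4 lost it in 7 of 15 fits and Plod1 in 7 of 17. The Plod1 call was lost without any 1 HA155 array, without LPA array 9 (where its difference was 0.17, limma adjusted p = 0.0771), with array medians set equal, with no filter and in a fit of these 2 groups alone. The Loxl4 call was lost without any 1 LPA or HA155 array (limma adjusted p from 0.0624 to 0.113) and with no filter. Plod2 came close with 0.22 (limma adjusted p = 0.051), passed in 5 of 17 fits, and passed at 0.29 without LPA array 7 (limma adjusted p = 0.0108). Plod3 measured 0.15 (limma adjusted p = 0.234) and passed only without LPA array 8 (0.24, limma adjusted p = 0.0327).

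**Figure D3:**
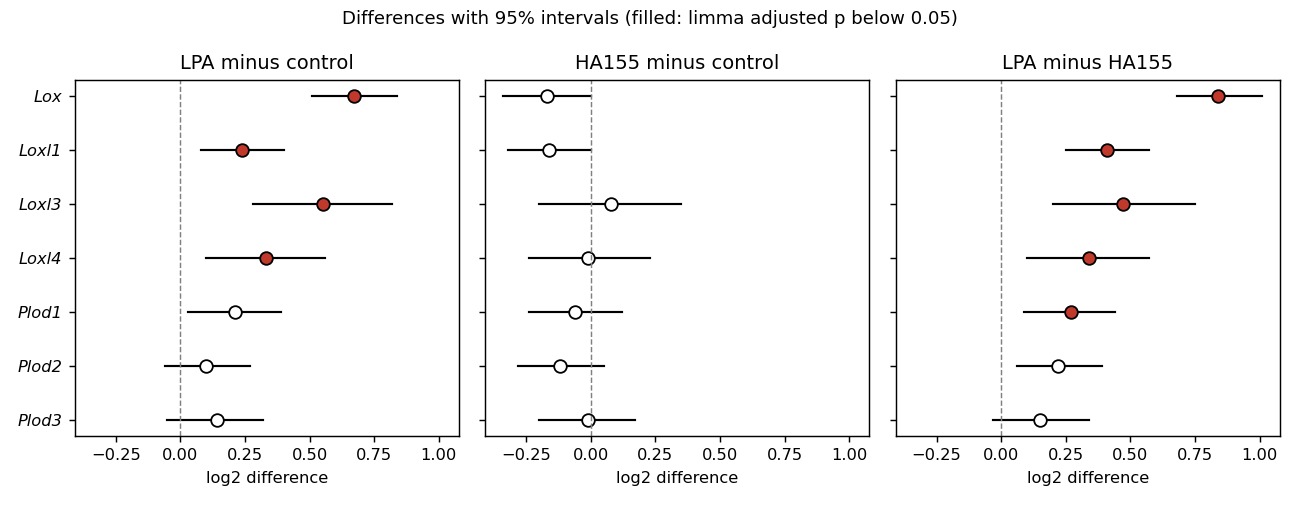
Log2 difference (x axis) of each measured gene in the 3 comparisons, with 95% intervals from limma, and filled points at an adjusted p below 0.05. Lox lies farthest right with LPA against control (0.67) and against HA155 (0.84), and no point is filled for HA155 against control.

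Across the 3 conditions, the means ran LPA, then control, then HA155 for Lox, Loxl1, Plod1, Plod2 and Plod3. Lox, for one, averaged 3550 ± 51.6 units with LPA, 1980 ± 195 with HA155 and 2230 ± 123 in control (SD, n = 3 each). For Loxl3 HA155 lay above control, at 389 ± 27.5 units with HA155 and 370 ± 42.8 in control, and for Loxl4 both means were 6.23 on the log2 scale. HA155 and control, neighbours in each of these orders, did not differ by the test for any member. A moderated F test over the 3 groups passed Lox (adjusted p = 2.41e-05), Loxl1 (adjusted p = 0.00444) and Loxl3 (adjusted p = 0.0116), and 24.5% of all genes tested. Loxl4 (adjusted p = 0.0523) and Plod1 (adjusted p = 0.067) came next, then Plod2 (adjusted p = 0.127) and Plod3 (adjusted p = 0.363).

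Within the lysyl oxidases, the measured change of Lox exceeded that of Loxl1. On the log2 scale the gap between their changes was 0.43 for LPA against control and 0.44 for LPA against HA155, and in both the arrays did not overlap. The exact permutation test gave p = 0.1, two-sided, the smallest that 3 arrays against 3 allow (Benjamini-Hochberg adjusted over 6 pairs 0.6 and 0.15). Against control the gaps to Loxl4 (0.34) and Loxl3 (0.12) had arrays that overlapped, with exact p of 0.3 and 0.5. Among the hydroxylases against control no pair separated, with gaps of -0.10 for Plod2 over Plod1, -0.03 for Plod2 over Plod3 and 0.07 for Plod1 over Plod3, and exact p of 0.5 or more. For LPA against HA155 the arrays did not overlap for the gaps of Lox over Loxl3 (0.37), Lox over Loxl4 (0.51) and Plod1 over Plod3 (0.12), each with an exact permutation p of 0.1 (adjusted 0.15). With HA155 against control the Lox change minus that of Loxl3 was -0.25 on the log2 scale, with arrays that did not overlap (exact permutation p = 0.1, adjusted 0.6).

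For the 3 members that passed the F test, the genes of nearest profile were sought among the other 13334, by the root mean square difference of log2 profiles over the 9 arrays, each profile centred on its own mean. Lox itself varied by 0.373 on that measure. Its nearest was Timp2, a tissue inhibitor of metalloproteases, at 0.051, then Adgra2, an adhesion G-protein-coupled receptor, at 0.062, and Timp3, another of the metalloprotease inhibitors, at 0.066. With LPA against control Timp2 changed by 0.66, Adgra2 by 0.57 and Timp3 by 0.73. With HA155 against control the same genes measured -0.19, -0.22 and -0.04, and none of them passed.

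Loxl1 varied by 0.182 and lay nearest to Pdzd8 (0.037), Jdp2 (0.040), a repressor related to AP-1, and Osbpl5 (0.041), an oxysterol-binding protein relative. Loxl3 varied by 0.287 and lay nearest to Wsb1 (0.057), Rab7b (0.064), a small GTPase of endosomes, and Gask1a (0.075). All 3 neighbours of Loxl3 had, like it, their lowest LPA value on array 8. These distances describe 9 arrays and were not tested.

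**Figure D4:**
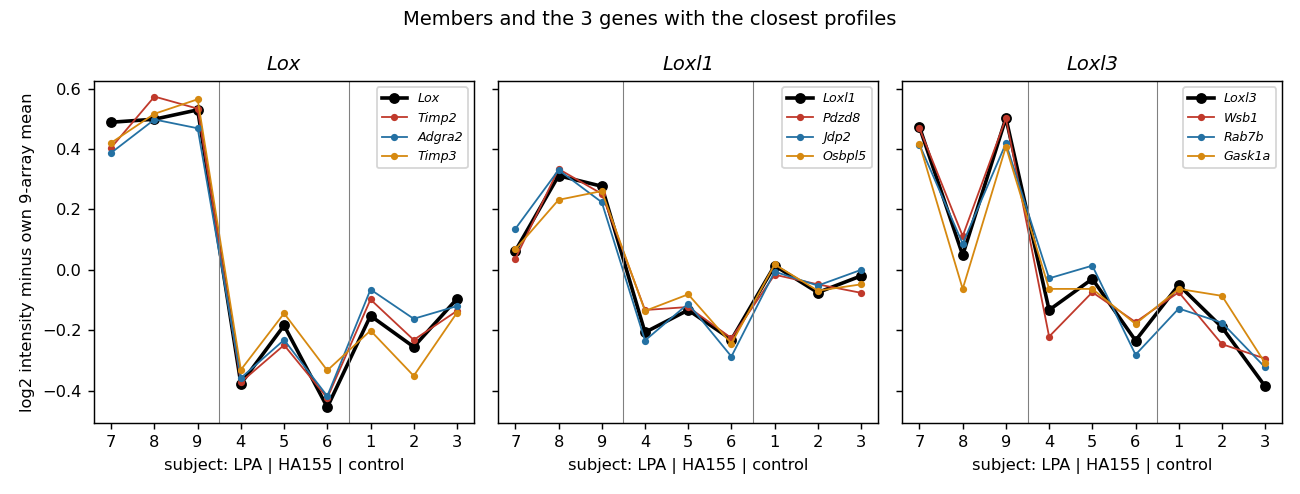
Log2 intensity minus each gene's own 9-array mean (y axis) on the LPA, HA155 and control arrays (x axis, subject numbers) for Lox, Loxl1 and Loxl3 (black) and the 3 genes nearest to each. Timp2 follows Lox within a root mean square difference of 0.051, and the Loxl3 group dips on LPA array 8.

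The rest of the collagen pathway was read from lists chosen with earlier results known, and is described by counts and medians alone. Of all genes tested 12.2% rose and 10.8% fell with LPA against control. Fibrillar collagen chains, the main substrates, rose in 6 of 11 genes with LPA and fell in 1, with a median log2 change of 0.21. Col1a1 rose by 0.36, Col1a2 by 0.27 and Col5a2 by 0.30, while Col5a3 fell by 0.45 (limma adjusted p = 0.000171). Of 8 basement membrane chains 1 rose and 2 fell, with a median of -0.10: Col4a2 fell by 0.29 and Col4a1 fell by 0.26, and Col4a5 rose by 0.25.

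Of 15 genes of prolyl hydroxylation and procollagen folding 9 rose and none fell with LPA, with a median of 0.29. They included the prolyl 4-hydroxylase subunits P4ha3 (0.77) and P4ha2 (0.45), the prolyl 3-hydroxylase relative P3h3 (0.54) and the endoplasmic-reticulum isomerase Fkbp7 (0.45). Of 9 genes of collagen glycosylation and export 5 rose, among them Creb3l1 (0.64), a transcription factor of secretory capacity, the coat protein Sec24d (0.48), the collagen galactosyltransferase Colgalt1 (0.34) and the collagen export receptor Mia3 (0.34). Of 6 genes of procollagen processing 3 rose: Bmp1, the protease that trims procollagen and activates pro-Lox, by 0.57, and the enhancers of its activity Pcolce by 0.28 and Pcolce2 by 0.36.

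Partners in fibril assembly rose in 14 of 18 genes with LPA and fell in 1, with a median of 0.36. Fmod, the fibromodulin that binds fibrils and lysyl oxidase, rose by 1.10, the matricellular Tnc by 0.95, Thbs1 by 0.94 and Thbs2 by 0.81. The one that fell was the small proteoglycan Lum (-0.27, limma adjusted p = 0.0361), named after its value was seen. Eln, the elastin substrate, measured -0.10 with LPA (limma adjusted p = 0.25) and fell by 0.33 with HA155 (limma adjusted p = 0.0227), the one gene of this list called for HA155. None of the genes tested in the lists of fibrillar chains (11), basement membrane chains (8), folding (15), export (9) or processing (6) passed for HA155 against control. Of all genes tested only 1.03% passed in that comparison.

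Other cross-linking chemistry did not move as one. Tgm2, the transglutaminase that joins glutamine to lysine, fell by 0.56 with LPA (limma adjusted p = 0.000142) and rose by 0.65 with HA155 (limma adjusted p = 0.00129), both against the same controls. Sulf1, a heparan sulfate sulfatase placed in the same list, rose by 0.95 with LPA. Of 13 genes of copper supply and amine oxidases 3 rose and 3 fell with LPA, with a median of -0.06. The metallothionein Mt2 rose by 0.80 and the metal reductase Steap3 by 0.67, while the copper chaperone Cox17 fell by 0.38 and Steap4 fell by 0.33. Mt2 also rose with HA155, by 0.29 (limma adjusted p = 0.045).

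Several lysyl oxidases and hydroxylases are known hypoxia and TGF-beta responders, so lists of both responses were read beside them. Of 17 hypoxia-response genes 4 rose and 6 fell with LPA, with a median of -0.07. Bnip3 fell by 0.83 and Pdk1 fell by 0.71, whereas Adm rose by 0.58 and Ndrg1 by 0.52. Of 12 TGF-beta response genes 10 rose and none fell, with a median of 0.53: Ccn2, known as connective tissue growth factor, rose by 0.95, Tgfbi by 0.64, the ligand Tgfb3 by 0.58 and Tgfb1i1 by 0.48. Tagln stands both in this list and among the smooth muscle markers, and the list also holds TGF-beta ligands. Beside these counts, 12.2% of all genes tested rose and 10.8% fell with LPA against control. For HA155 none of the 12 TGF-beta genes passed, and of the hypoxia list Adm fell by 0.63 (limma adjusted p = 0.00136). The part of either response in the changes of the members was not tested.

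**Figure D5:**
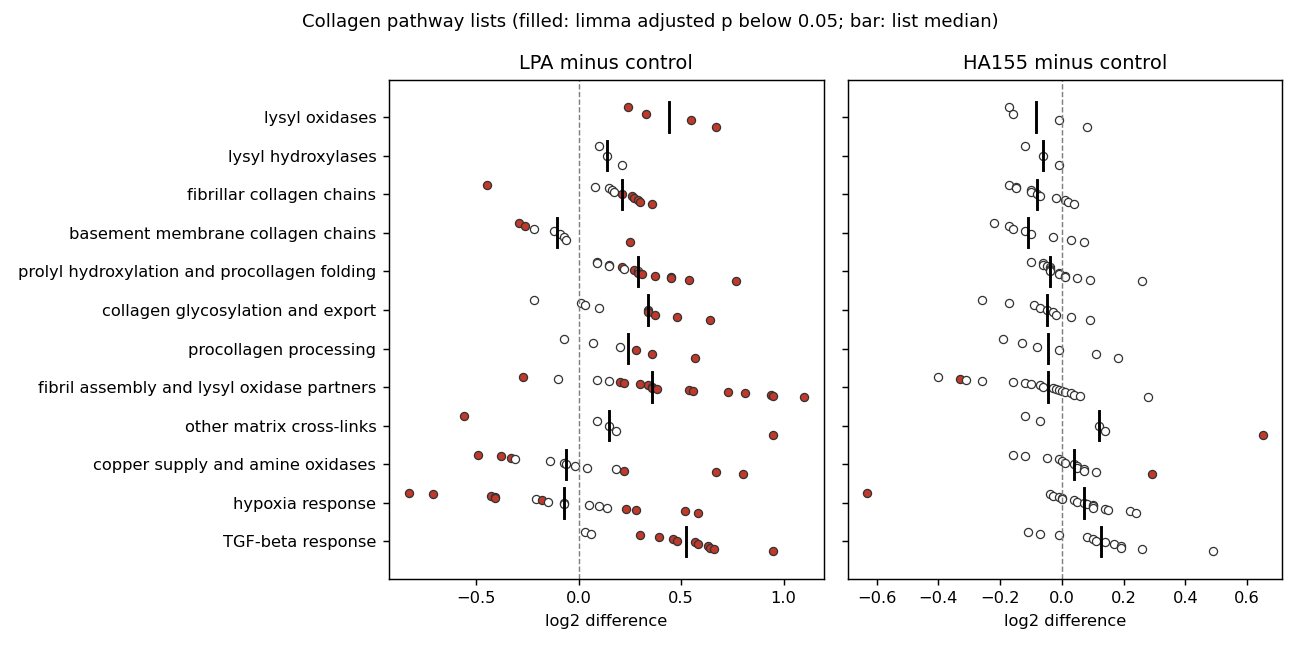
Log2 difference of each tested gene (points, filled at a limma adjusted p below 0.05) in the 12 pathway lists, the lysyl oxidases and hydroxylases included, for LPA minus control and HA155 minus control, with a bar at each list median. With LPA the median is 0.44 for the lysyl oxidases, 0.36 for fibril assembly and -0.07 for the hypoxia list.

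Markers of some cell types also changed with LPA. In whole cultures a change in the share of a cell type and a change of RNA per cell cannot be told apart. All 10 tested adipocyte markers fell with LPA, with a median log2 change of -1.29, and their summed intensity was 11500 to 12900 units with LPA, 25100 to 27000 with HA155 and 24000 to 25200 in control. Cidec, a lipid-droplet protein, fell by 1.88 and Slc2a4, the insulin-responsive glucose transporter, fell by 1.94, while Retn fell by 1.95 and the lipase gene Lipe fell by 1.50. Of 12 preadipocyte and fibroblast markers 8 rose and none fell, with sums of 12800 to 13700 units with LPA, 8300 to 9290 with HA155 and 9570 to 10200 in control. They included Thy1 (0.76), Pdgfrb (0.70), Pdgfra (0.44) and Prrx1 (0.38).

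With HA155, 2 of these 12 markers fell, Dlk1 by 0.82 and Twist2 fell by 0.33. Of the 10 adipocyte markers, Cidec rose by 0.65 and Lep by 0.66. Among 5 tested brown adipocyte genes 4 fell with LPA and 3 rose with HA155. Cox7a1, a cytochrome c oxidase subunit, fell by 1.84 with LPA and rose by 1.13 with HA155, and Cox8b, another subunit, fell by 1.85 with LPA and rose by 1.01 with HA155. Pdk4 fell by 0.66 with LPA and rose by 0.53 with HA155, and Ppargc1a fell by 0.60 with LPA. The defining genes Ucp1, Cidea, Dio2 and Elovl3 were not tested, since their means over all arrays lay below the intensity limit. Cidea had a mean log2 intensity of 6.39 with HA155, above the limit of 5.59, against 4.75 with LPA and 4.92 in control. The summed intensity of the 9 brown markers with a probe set was 605 to 671 units with LPA, 2240 to 2390 with HA155 and 1290 to 1350 in control. The part of cell makeup in the changes of Lox and its relatives was not tested.

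Of 8 smooth muscle and pericyte markers 3 rose with LPA, Des by 0.58, Acta2 by 0.54 and Tagln by 0.46, and Notch3 fell by 0.37. The 4 not called were Cnn1 (0.21), Cspg4 (0.21), Lmod1 (0.19) and Myh11 (-0.13). For comparison, 12.2% of all genes tested rose and 10.8% fell with LPA against control. Sums in this paragraph cover every listed gene with a probe set, also those below the intensity limit. These were 9 smooth muscle and pericyte, 11 skeletal muscle, 9 macrophage, 8 endothelial, 4 Schwann-cell and 5 mesothelial genes. Bright genes weigh most in such sums. Acta2, for one, had a mean log2 intensity of 11.27 with LPA, against 6.56 for Myh11. For smooth muscle and pericyte the summed intensity was 3790 to 3960 units with LPA, 3190 to 3710 with HA155 and 2720 to 3030 in control. Of 10 skeletal muscle markers 5 rose with LPA (3 without LPA array 8), among them Myh1 (0.98), Actc1 (0.76), Tnnt3 (0.55) and Acta1 (0.45). The 5 not called were Tnni2 (0.15), Ckm (0.05), Myog (0.02), Myod1 (-0.03) and Pax7 (-0.03). Myh1 also rose with HA155, by 0.64 (limma adjusted p = 0.00695). The skeletal muscle sums were 1740 to 2070 units with LPA, 1380 to 1480 with HA155 and 1350 to 1440 in control. None of 6 macrophage markers passed (sums 649 to 959 units with LPA, 862 to 1020 with HA155 and 669 to 777 in control), and the mean of the defining marker Adgre1 over all arrays lay below the intensity limit. Of 5 endothelial markers Tek rose and Sox18 fell with LPA, the fall lost without LPA array 8. The means of Pecam1 and Kdr over all arrays lay below the limit (sums 596 to 602 units with LPA, 530 to 573 with HA155 and 561 to 616 in control). Of 4 Schwann-cell markers Ncam1 rose by 0.74 (sums 930 to 1040 units with LPA, 717 to 765 with HA155 and 760 to 806 in control). The 3 not called were S100b (0.15), Ngfr (0.10) and Sox10 (0.01). Of 3 mesothelial markers none passed (sums 270 to 323 units with LPA, 276 to 284 with HA155 and 268 to 313 in control). Of the 2 blood-cell markers with a probe set both lay below the limit.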

How the data were processed

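Per the submitters' processing notes, RMA produced the deposited values, which are linear intensities, 1 for each probe set on each array. The RMA version is not given here. RMA corrects background, equalises quantiles between arrays, which removes any global shift, and summarises probes. Array medians ran from 70.7 to 72.8. Intensities were converted to log2 without an offset. The platform annotation, which can be old, gave a single symbol to 21706 of 35432 probe sets and so 19858 genes, each read from its brightest probe set. Lists were matched by current RefSeq symbols. The filter kept genes whose mean reached the 40th percentile of probe sets (intensity 48.2). No detection calls were used. Group differences came from limma 3.58.1 (R 4.3.3) fitted to all 9 arrays in 3 groups (6 residual degrees of freedom, two-sided, Benjamini-Hochberg over 13335 genes at 0.05). The script was tested on simulated data. The design text gives 3 cultures per condition. The p-values reflect the spread among those cultures, pooled over the 3 groups, and no spread from beyond them. Limma also moderated each gene's variance towards that of all genes tested (4.82 prior degrees of freedom).

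The members, lists and settings were chosen with earlier results of these data known. All members were described. Other genes were named only from the 4 of smallest p for LPA and the 2 for HA155 in each list, not all of which are named, and from the 3 nearest profiles of each member that passed the F test. The genes named as below the intensity limit, Lum, and the smooth muscle and skeletal muscle markers named as not called fall outside that rule.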

Additional observations from a re-analysis of the deposited data

How the results depend on the processing

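Counts of called members and genes and the members' differences were recomputed under 8 other settings and with each of 9 arrays left out. The F test had no fit of only the groups compared, list counts were recomputed only without LPA array 8, and nearest profiles and gaps between members were not recomputed. The number of members called higher with LPA over control was 4, and 2 with no filter on low values, with array weights or in a fit of only the groups compared. Leaving out 1 array gave 2 to 4, with 2 without control array 3, HA155 array 4 or LPA array 9. Against HA155 it was 5, and 3 with no filter, while leaving out 1 array gave 2 to 5, with 2 without HA155 array 6 or LPA array 9 and 3 without HA155 array 4 or 5. No member was called lower in any of these fits (0 in all 3 comparisons), and none was called for HA155 over control (0 higher). Members that passed the F test numbered 3, and 2 to 4 with 1 array left out.

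Over all genes, HA155 against control called 138, and 86 with no filter, 338 with array weights and 212 in a fit of its own groups. With 1 array left out it called 39 (control array 2) to 235 (LPA array 8), with 78 and 75 without control arrays 1 and 3, and 43, 43 and 55 without HA155 arrays 4, 5 and 6. The counts with 1 array left out were 2296 to 3150 for LPA against control and 2589 to 3462 for LPA against HA155. No member reversed a call. Loxl4 had no value at the 60th percentile filter or as a mean over its probe sets, where it fell under the limit. Without LPA array 8, a choice made after seeing the data, 12 of 15 folding genes (9 on all arrays), 15 of 18 fibril assembly genes (14), 5 of 11 fibrillar chains (6), 4 of 9 glycosylation and export genes (5), 3 of 6 processing genes (3), 9 of 12 TGF-beta genes (10), 9 of 12 preadipocyte markers (8) and 3 of 10 skeletal muscle markers (5) rose. In the same fit 3 of 8 basement membrane chains (2), 7 of 17 hypoxia genes (6), 4 of 13 copper and amine oxidase genes (3), 5 of 5 brown adipocyte markers (4) and 10 of 10 adipocyte markers (10) fell. The cause of these shifts was not tested. No paired analysis was possible because the subject numbers differ between the groups.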
